A study of Mus musculus with 24 samples.

Results

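The ERK feedback genes are 10 genes that cells switch on when growth factor signalling through the RAS-ERK pathway is active, namely Dusp4, Dusp5, Dusp6, Spry1, Spry2, Spry4, Spred1, Spred2, Etv4 and Etv5. They were chosen by name, with earlier results of these data known, and make up 10 of the 53801 genes with values. All 10 passed the filter on low values in each comparison. They were followed in pancreatic stellate cells (PSC), the fibroblast-like cells of the pancreas that become activated around pancreatic ductal adenocarcinoma, under paracrine influence of cancer cells. PSC came from wild-type C57BL/6J mice aged 7 to 10 weeks, with 4 to 10 pancreata pooled per isolation, and were used at up to passage 2. The cancer cells were KPC cells, a line from a mouse pancreatic tumour. In standard co-culture (distant paracrine) KPC cells covered the floor of the well, below the insert with PSC. In inverse co-culture (close paracrine) they were attached to the lower face of the membrane that carried PSC, whose pores measure 1 µm. Control PSC were mono-cultured. There were 8 groups, namely co-culture and control of each model at 24 h and 72 h, with 3 libraries each. During the time count all groups were kept in medium with 10% FBS, so serum growth factors were present in the controls too. Before it, standard PSC and their controls were in another medium with more FBS, replaced at its start. Inverse PSC and their controls were seeded into the medium with 10% FBS, which was not renewed. Inverse PSC and KPC cells had already shared the membrane before the start of the time count, and coexisted for up to 96 h. Libraries were made from 450 ng of RNA in the standard model and 120 ng in the inverse model. Model therefore cannot be told apart from RNA input, time of coexistence or medium history. Replicates are counted here as separate samples because they are numbered so, and p-values measure the spread between these libraries.

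In this pathway, receptor tyrosine kinases pass a growth factor signal through RAS, RAF and MEK to the kinase ERK. Active ERK induces transcription of its own inhibitors, so the amounts of these transcripts are widely used as a readout of pathway output. Dusp4, Dusp5 and Dusp6 encode phosphatases that remove the activating phosphates from ERK, Dusp6 in the cytoplasm and Dusp4 and Dusp5 in the nucleus. Spry1, Spry2 and Spry4 (Sprouty) and Spred1 and Spred2 (Sprouty-related, with an EVH1 domain) encode membrane-associated inhibitors that act upstream, between receptor and RAF. Etv4 and Etv5 encode ETS transcription factors of the PEA3 group, which carry the signal on to further genes.

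The libraries held between 15932737 and 24798761 counted fragments, with a median of 18860269, and between 12277 and 13307 genes above 1 FPKM (counted fragments divided by transcript length and library size). A member rested on 111 to 3797 fragments per library, so counting error was small beside the spread between libraries. Of 12 stellate cell and fibroblast markers, 11 exceeded 1 FPKM in every group, with Col1a1 at 4918 FPKM or more and Des, the muscle-type filament desmin, at 26.2 FPKM or more. Gfap, a defining marker of quiescent PSC, was at most 0.237 FPKM in any library. Standard libraries numbered 1 stood apart: Acta2, which encodes α-smooth muscle actin, reached 5963 and 4537 FPKM in their controls, against 476 to 1509 FPKM in the controls numbered 2 and 3. Standard libraries numbered 2 carried the most macrophage transcripts, with a summed FPKM of 8 markers between 396 and 1349, against 38.8 to 182 in the other standard libraries.

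In the GRCm38 genome the genes lie apart from each other. Dusp4 (ENSMUSG00000031530) spans chr8:34807297-34819894 on the plus strand, Dusp5 (ENSMUSG00000034765) chr19:53529109-53542431, plus, and Dusp6 (ENSMUSG00000019960) chr10:99263231-99267489, plus. Spry1 (ENSMUSG00000037211) spans chr3:37639947-37644598, plus, and Spry2 (ENSMUSG00000022114) chr14:105891947-105896819, minus. Spred1 (ENSMUSG00000027351) spans chr2:117121374-117182279, plus, and Spred2 (ENSMUSG00000045671) chr11:19924375-20024026, plus. Etv4 (ENSMUSG00000017724) spans chr11:101769742-101785371, minus, and Etv5 (ENSMUSG00000013089) chr16:22381309-22439719, minus. Spry4 has the identifier ENSMUSG00000024427. Values are sums over each gene's exons, so no isoform is distinguished. An annotated antisense gene shares 547 exon bases with Dusp5, and an unclassified gene on the other strand shares 710 with Spry1. Reads were counted with default settings, which disregard strand, so reads of these partners cannot be told apart from those of Dusp5 and Spry1. The partner of Spry1 was at most 0.484 FPKM, and that of Dusp5 was not analysed here.

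Promoter sequence is shown for Dusp5 and Dusp6, the phosphatase genes that rose in the inverse model (at 24 h and at 72 h respectively), and for a second start site of Etv5. The stretches come from the RefSeq promoter table of GRCm38.p6, which held 8 windows for 7 of the 10 members. Those of Dusp5 and Dusp6 stop before the first annotated exon base, and that of Etv5 lies before a RefSeq start site inside the gene. Capitals mark matches, on either strand, to GGAAGT (a core bound by ETS factors) or to the CArG box (the site of serum response factor). The Dusp5 stretch is chr19:53528895-53529108, plus strand, the Dusp6 stretch chr10:99262981-99263230, plus strand, and the Etv5 stretch chr16:22438369-22438618, minus strand, inside an intron of Etv5.
Dusp5: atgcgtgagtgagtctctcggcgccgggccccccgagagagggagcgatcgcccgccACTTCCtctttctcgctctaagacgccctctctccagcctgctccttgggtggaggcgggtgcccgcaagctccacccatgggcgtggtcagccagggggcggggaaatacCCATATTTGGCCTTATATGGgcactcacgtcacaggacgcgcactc
Dusp6: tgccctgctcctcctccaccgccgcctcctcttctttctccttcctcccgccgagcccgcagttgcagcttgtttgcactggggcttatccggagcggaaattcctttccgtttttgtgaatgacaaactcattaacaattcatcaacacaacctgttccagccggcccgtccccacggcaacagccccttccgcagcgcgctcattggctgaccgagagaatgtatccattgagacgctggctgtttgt
Etv5: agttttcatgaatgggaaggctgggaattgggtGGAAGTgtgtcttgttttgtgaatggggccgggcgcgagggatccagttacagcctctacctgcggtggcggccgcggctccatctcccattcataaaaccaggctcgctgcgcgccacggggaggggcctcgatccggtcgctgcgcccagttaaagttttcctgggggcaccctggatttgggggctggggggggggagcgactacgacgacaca

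The Dusp5 stretch held 2 CArG boxes side by side, running from 82 to 63 bases before the RefSeq start site, and 1 GGAAGT match from base 193 to base 188 before it. Of all 32851 windows of 250 bases before a start site, 1.47% held a CArG box and 6 held 2 or more. GGAAGT was present in 19.7% of all windows and in 3 of the 8 member windows, those of Dusp5, Spred2 and the second Etv5 start. CCGGAAG, a longer ETS match that can overlap GGAAGT, was in 6.91% of all windows, the AP-1 site TGANTCA in 6.75% and the cyclic AMP site TGACGTCA in 1.55%, and no member window held these letters. The motifs were chosen after the windows had been read, and the matches are descriptions of these windows.

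FPKM is scaled by 1 length per gene, from 1087 bases for Etv4 to 4587 for Spry4. Except for Spry4, this length matched the mean of the gene's annotated transcripts, while fragments were counted over all exons. The order of the members by level therefore depends in part on annotation and is approximate. Over the 24 libraries Spry2 was the most abundant, at 46.2 ± 21.1 FPKM (SD, n = 24), followed by Spred1 at 34.4 ± 6.06 and Spry1 at 29.1 ± 10.2. Etv5 averaged 25.4 ± 5.84 FPKM, Dusp4 23.3 ± 11.9, Spred2 19.4 ± 3.30 and Etv4 19.02 ± 8.98. The lowest were Dusp6 at 13.1 ± 5.47 FPKM, Dusp5 at 8.04 ± 3.47 and Spry4 at 5.53 ± 2.14. Spred1 and Spred2 were the steadiest, with 1.89-fold and 1.87-fold between the highest and the lowest library. Etv4 ranged most widely, 7.06-fold, followed by Spry2, 6.53-fold, and Dusp5, 6.30-fold. For Spry2, Etv4 and Spry1 the spread within groups exceeded that between group means (SD of log2 values 0.74 against 0.46, 0.65 against 0.44 and 0.43 against 0.30), and for Spred1 both were alike (0.208 and 0.205).

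When the 8 groups were ordered by mean, inverse co-culture at 72 h came first for 8 of the 10 members. The exceptions were Dusp5, highest in standard co-culture at 24 h with 12.2 ± 3.77 FPKM (SD, n = 3), and Spry4, highest in the inverse control at 72 h with 9.43 ± 2.30. The inverse control at 24 h came last for 6 members. Of the 70 pairs of neighbouring groups in these orders, 2 did not overlap in their 3 libraries. Etv5 in inverse co-culture at 24 h at 26.9 FPKM lay above the standard control at 72 h, at 22.4 FPKM. This split the Etv5 groups into the 4 co-cultures above and the 4 controls below. The other was Dusp4 in the standard control at 72 h, at 16.1 FPKM, above the inverse control at 24 h, at 10.6 FPKM. All remaining neighbours overlapped within their spread.

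**Figure D1:**
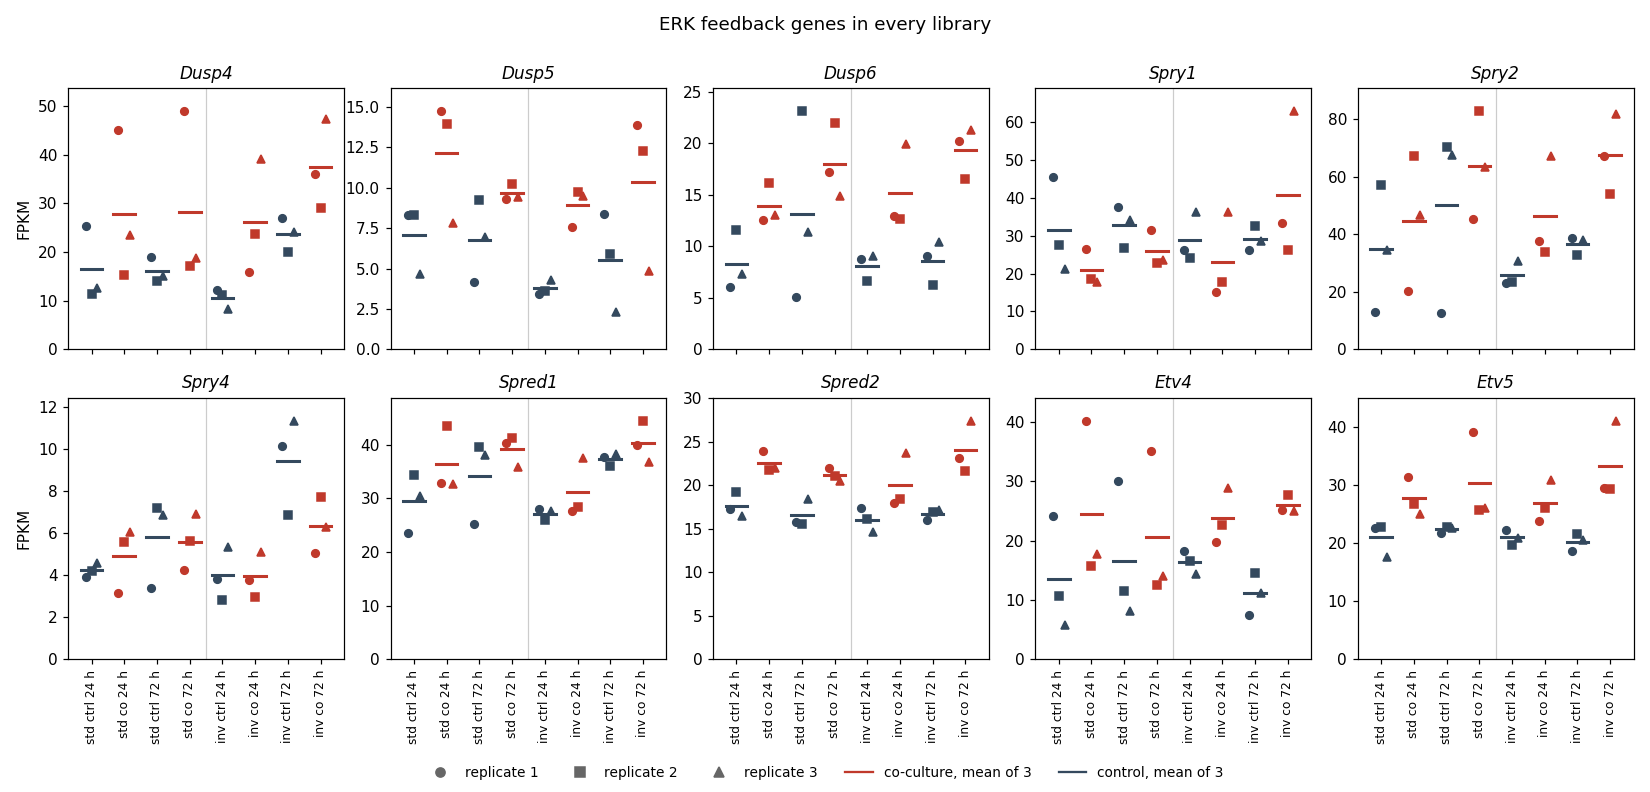
FPKM of each ERK feedback gene (y axis, linear, from 0) in the 8 groups (x axis; std is standard, inv is inverse, co is co-culture, ctrl is control). Each symbol is 1 library, its shape the replicate number, and the line the mean of 3. In inverse co-culture at 72 h, Dusp6, Spry2, Spred2, Etv4 and Etv5 lie above their controls in all libraries. The replicate 1 libraries of the standard model lie low for Spry2 and high for Etv4.

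Among the comparisons of co-culture with control, members were called most often in the inverse model at 72 h. There, 5 of the 10 members rose against control PSC (limma on log2(FPKM + 0.5), Benjamini-Hochberg adjusted p under 0.05 over all 13066 genes tested), and none fell. Among all genes tested 12.8% passed, 3.27% with higher and 9.57% with lower values in co-culture. The median log2 fold change was 0.66 over the members and -0.16 over all genes tested. In 6 members every co-culture library lay above every control library, as was the case for 9.53% of all genes tested. In bulk RNA, fewer cells of a type and less RNA per cell cannot be told apart.

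Dusp6 had 20.2, 16.5 and 21.3 FPKM in the co-culture libraries (replicates 1 to 3) and 9.07, 6.20 and 10.4 FPKM in the controls. All co-culture libraries were above the controls, 2.26-fold by the means, with a log2 fold change of 1.15 ± 0.20 (SE, adjusted p = 0.0138). Etv4 had 25.1, 27.7 and 25.01 FPKM in co-culture and 7.52, 14.5 and 11.2 FPKM in the controls. The groups were again separate, the co-culture libraries lay close together, and the rise was 2.34-fold (1.24 ± 0.22 on the log2 scale, adjusted p = 0.0138). Spry2 had 67.2, 53.8 and 81.6 FPKM in co-culture and 38.8, 32.8 and 38.2 FPKM in the controls. It rose 1.85-fold (0.86 ± 0.16, adjusted p = 0.0166), with no overlap.

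Etv5, the paralog of Etv4, had 29.6, 29.4 and 41.0 FPKM in co-culture and 18.6, 21.6 and 20.5 FPKM in the controls. Its rise was 1.64-fold (log2 fold change 0.69 ± 0.15, adjusted p = 0.0273), with the highest value in replicate 3. Spred2 had 23.1, 21.7 and 27.4 FPKM in co-culture and 16.0, 16.9 and 17.2 FPKM in the controls. This was the smallest of the 5 rises, 1.44-fold (0.51 ± 0.12, adjusted p = 0.0349), with separate groups.

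The other 5 members did not pass at 72 h. Dusp4 had 36.1, 29.1 and 47.3 FPKM in co-culture and 27.0, 20.1 and 24.0 FPKM in the controls, without overlap (log2 fold change 0.63 ± 0.19, adjusted p = 0.0651). Dusp5 had 13.9, 12.3 and 4.87 FPKM in co-culture and 8.38, 5.91 and 2.34 FPKM in the controls. In both groups replicate 3 was the lowest, and the groups overlapped (0.87 ± 0.49, adjusted p = 0.265). With 1 library left out the log2 fold change of Dusp5 ranged from 0.40 to 1.32. Spry4 differed in sign from the rest, with 5.06, 7.69 and 6.30 FPKM in co-culture and 10.1, 6.86 and 11.3 FPKM in the controls (-0.53 ± 0.23, adjusted p = 0.156). Spry1 had 33.4, 26.3 and 62.9 FPKM in co-culture and 26.2, 32.5 and 28.6 FPKM in the controls, so its higher mean came from replicate 3 (0.39 ± 0.29, adjusted p = 0.391). Spred1 was between 36.8 and 44.4 FPKM in co-culture and between 35.997 and 38.3 FPKM in the controls (0.11 ± 0.10, adjusted p = 0.513).

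The count of 5 rested on single libraries. Without co-culture replicate 1 none of the members passed, with adjusted p = 0.0604 for Dusp6, 0.0564 for Etv4, 0.0649 for Spry2, 0.0641 for Etv5 and 0.0970 for Spred2. That fit called 119 genes higher and 384 lower in all. Without control replicate 1, and likewise without control replicate 2, Dusp6 and Etv4 passed, 2 members, and without control replicate 3 Dusp6 alone, 1 member. The log2 fold changes themselves moved less: that of Dusp6 was 1.12 without co-culture replicate 1 and that of Etv4 1.26. With all 24 libraries in the model, Spred2 and Etv5 passed, 2 members, and without the filter Dusp6, Spry2 and Etv4, 3 members. With each library scaled by its median gene ratio, which moved the median log2 fold change of all genes from -0.16 to -0.01, Dusp4 passed as well, 6 members, and 746 genes were called higher and 686 lower in place of 427 and 1251.

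Markers of other cells differed between these groups too. The summed FPKM of 10 epithelial markers was 1.504 to 8.17 in these co-cultures and did not exceed 0.338 in the controls, with 3 of 10 above 1 FPKM in any co-culture library. Their highest value was Krt8 at 3.14 FPKM, while Epcam and Cldn4 were at most 0.123 and 0.09 FPKM in any of the 24 libraries and Grhl2 was at 0 in all of them. The sum of 6 adipocyte markers was 27.7 to 104 FPKM in co-culture and 428 to 887 FPKM in the controls, with 5 of 6 above 1 FPKM. The sum of 8 macrophage markers was 56.3 to 81.9 FPKM in co-culture and 126 to 251 FPKM in the controls, with 6 and 8 of 8 above 1 FPKM. The sum of the 12 stellate cell and fibroblast markers was 29698 to 35449 FPKM in co-culture and 21965 to 27968 FPKM in the controls. The part of these cells in the members' values was not tested.

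At 24 h of inverse co-culture 1 member rose, Dusp5, against 2.47% of all genes tested in either direction and 1.08% with higher values. Dusp5 had 7.60, 9.76 and 9.49 FPKM in co-culture and 3.43, 3.59 and 4.30 FPKM in the controls. The 2 groups were tight and far apart, 2.37-fold by the means (log2 fold change 1.14 ± 0.17, adjusted p = 0.0159). In 7 of the 10 members all co-culture libraries exceeded all controls, against 7.38% of all genes tested. The median log2 fold change was 0.43 over the members and -0.06 over all genes tested. With the scaling by gene ratios 179 genes were called higher and 145 lower, in place of 139 and 178, and Dusp5 still passed (adjusted p = 0.0161).

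Dusp4 had 15.9, 23.7 and 39.2 FPKM in co-culture and 12.2, 11.2 and 8.29 FPKM in the controls. Its fold change was the largest of all members, but the co-culture libraries ranged widely (1.19 ± 0.29, adjusted p = 0.0825). Dusp6 had 12.9, 12.7 and 19.97 FPKM against 8.73, 6.63 and 9.04 FPKM (0.84 ± 0.21, adjusted p = 0.0803). Spry2 had 37.7, 33.9 and 67.0 FPKM against 23.01, 23.6 and 30.6 FPKM (0.78 ± 0.24, adjusted p = 0.159). In these 3 genes, as in Etv4, Etv5 and Spred2, replicate 3 was the highest of the co-culture libraries. Etv4 was between 19.7 and 28.8 FPKM against 14.3 to 18.2 FPKM (0.52 ± 0.16, adjusted p = 0.166). Etv5 was between 23.9 and 30.8 FPKM against 19.7 to 22.3 FPKM (0.35 ± 0.13, adjusted p = 0.245), and Spred2 between 17.9 and 23.8 FPKM against 14.7 to 17.4 FPKM (0.30 ± 0.14, adjusted p = 0.387). Spred1 (0.18 ± 0.14), Spry4 (-0.01 ± 0.27) and Spry1 (-0.40 ± 0.30) overlapped between the groups.

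Markers of other cells varied between these libraries too. The sum of the macrophage markers was 25.6 FPKM in co-culture replicate 3 and 74.1 to 88.0 FPKM in the other 2 co-cultures, against 74.9 to 83.4 FPKM in the controls, with 6 and 7 of 8 above 1 FPKM. That of the adipocyte markers was 87.7 FPKM in replicate 3, also the lowest, and 125 and 198 FPKM in the other 2, against 164 to 252 FPKM, with 5 of 6 above 1 FPKM in both groups. The sum of 5 mesothelial markers was 30.5 to 33.8 FPKM in co-culture and 20.2 to 24.5 FPKM in the controls, with 2 and 1 of 5 above 1 FPKM, most of it from Wt1 (27.8 to 33.6 and 19.6 to 24.0 FPKM), while Lrrn4 was at 0. Acta2 was 1253 to 1519 FPKM in co-culture and 2790 to 2922 FPKM in the controls. The part of these cells in the members' values was not tested. Keratin transcripts were uneven as well. Krt8, Krt18 and Krt19 stood at 15.2, 11.7 and 11.6 FPKM in co-culture replicate 2, and the sum of the 10 epithelial markers was 43.2 FPKM there, 6.78 in replicate 3 and 1.92 in replicate 1, against 0.37 to 0.587 in the controls. Without co-culture replicate 2 Dusp5 had a log2 fold change of 1.08 and did not pass (adjusted p = 0.0723), so 0 members passed. Without control replicate 1 or control replicate 2 it did not pass either (adjusted p = 0.0718 and 0.0802). With all 24 libraries in the model its adjusted p was 0.363, and in voom on recovered fragments, where Dusp4 and Dusp6 passed as well, 0.00364.

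**Figure D2:**
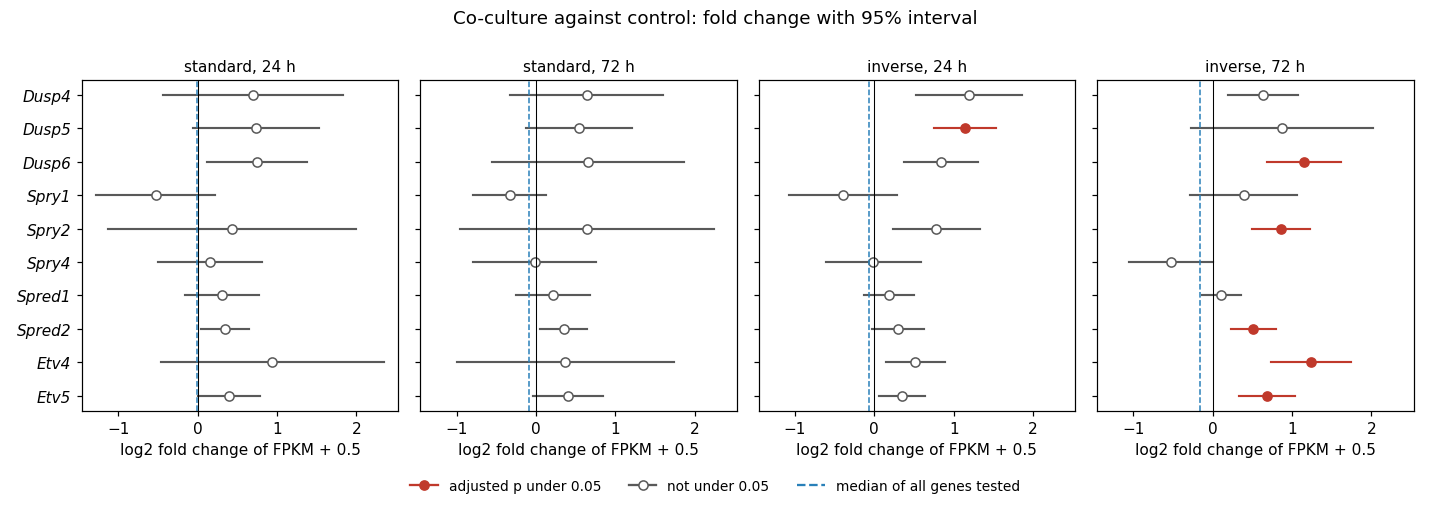
Log2 fold change of FPKM + 0.5 in co-culture against control (x axis) for each ERK feedback gene (y axis) in each model and at each time, with the 95% interval from limma. Filled red points passed an adjusted p of 0.05, and the dashed line is the median of all genes tested. The only points below 0 by more than 0.1 are those of Spry1 (standard model, both times, and inverse model, 24 h) and of Spry4 (inverse model, 72 h).

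The controls of the inverse model were compared over time as well. From 24 h to 72 h without KPC cells, 4 members rose (19.2% of all 13092 genes tested passed, 10.2% with higher and 9.05% with lower values). Dusp4 rose from 12.2, 11.2 and 8.29 FPKM to 27.0, 20.1 and 24.0 FPKM, 2.24-fold (1.13 ± 0.17, adjusted p = 0.00366). Spry4 rose from 3.83, 2.83 and 5.33 FPKM to 10.1, 6.86 and 11.3 FPKM, 2.36-fold (1.15 ± 0.25, adjusted p = 0.0146). Spred1 rose 1.37-fold (0.45 ± 0.09, adjusted p = 0.0105) and Spry2 1.42-fold (0.51 ± 0.13, adjusted p = 0.0305). Thus, for Dusp4, the control level at 72 h was close to the co-culture level at 24 h (23.7 ± 3.47 and 26.2 ± 11.9 FPKM), and for Spry4 it exceeded it (9.43 ± 2.30 and 3.93 ± 1.08 FPKM).

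Dusp6, Spred2 and Etv5 stayed within their spread in these controls, with log2 differences of 0.05 ± 0.21, 0.06 ± 0.11 and -0.05 ± 0.11. Etv4 had a lower mean at 72 h, with overlapping libraries, and did not pass (-0.58 ± 0.22, adjusted p = 0.0939). The sum of the adipocyte markers was 164 to 252 FPKM in the controls at 24 h and 428 to 887 FPKM at 72 h, with 5 of 6 above 1 FPKM at both times. The sum of the macrophage markers was 74.9 to 83.4 FPKM at 24 h and 126 to 251 FPKM at 72 h, with 7 and 8 of 8 above 1 FPKM. The part of these cells in the rise of the 4 members was not tested. Without the control at 24 h numbered 2, Dusp4 and Spred1 passed, 2 members, and with all 24 libraries in the model none did. In the standard controls no member and none of the 12963 genes tested passed between the times (0%), and all 10 members overlapped. There 8 of 10 members had a log2 difference above 0, beside 51.3% of all genes. The ratio of means, 72 h to 24 h, was 0.98 for Dusp4, 1.37 for Spry4, 1.16 for Spred1 and 1.44 for Spry2. In inverse co-culture itself no member passed between the times, with limma on 12758 genes of which 1 passed (0.00784%). There all 10 had a log2 difference above 0, beside 41.3% of all genes tested. An unadjusted p under 0.05 was found for 2 members, Spry4 and Spred1, and for 1953 of the 12758 genes.

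In the standard model no member passed at either time, and neither did any of the 12859 genes tested at 24 h nor of the 12863 at 72 h (0%) by limma. Voom on the recovered fragments called no gene either. At an unadjusted p under 0.05, 3 members (Dusp6, Spred2 and Etv5) and 371 of all genes were found at 24 h, and 1 member (Spred2) and 800 genes at 72 h. The log2 fold changes were above 0 for 9 of 10 members at 24 h and for 8 at 72 h. Their medians were 0.42 and 0.38, beside -0.01 and -0.09 over all genes tested.

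The libraries of the standard model varied with their replicate number. Spry2 was 12.9 and 12.7 FPKM in the controls numbered 1 at 24 h and 72 h, and 34.4 to 70.4 FPKM in those numbered 2 and 3. Etv4 had the opposite order, with 24.1 and 30.0 FPKM in the controls numbered 1 and 5.68 to 11.4 FPKM in the others. Compared within numbers at 24 h, 8 of 10 members were higher in co-culture in all 3 pairs (17.5% of all genes tested), and Spry1 was lower in all 3 (20.7%). At 72 h, 5 members were higher in all 3 pairs (10% of all genes), namely Dusp4, Dusp5, Spred2, Etv4 and Etv5, and Spry1 was again lower in all 3 (26%).

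Dusp5 had 14.7, 13.9 and 7.84 FPKM in standard co-culture at 24 h and 8.30, 8.29 and 4.66 FPKM in the controls. Each pair had a similar ratio, although replicate 3 of the co-culture lay below 2 of the controls. With the replicate number in the model, Dusp5 passed at 24 h (log2 fold change 0.73 ± 0.12, adjusted p = 0.0440), 1 member in all, against 1.22% of all genes, or 157 (0.661% higher and 0.56% lower). Dusp4 (adjusted p = 0.0613), Dusp6 (0.0650) and Etv4 (0.0899) did not pass in that fit. At 24 h 9 members had an unadjusted p under 0.05 in it, all but Spry4. Among them Spry1 had lower values in co-culture (-0.53), and the others had higher values. At 72 h 0 members and 1 gene of all passed in it. Of the members, 3 had an unadjusted p under 0.05, Dusp4 and Spred2 with higher and Spry1 with lower values. For neither unadjusted count in this fit is the share of all genes given here. These 2 counts therefore do not show whether the members differed from other genes.

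Dusp6 had 12.6, 16.2 and 13.01 FPKM in standard co-culture at 24 h and 6.09, 11.6 and 7.31 FPKM in the controls, without overlap. At 72 h it had 17.2, 21.99 and 14.9 FPKM against 5.04, 23.1 and 11.4 FPKM, so that the pair numbered 2 was not higher in co-culture. That pair had the highest macrophage sums, 767 FPKM in co-culture and 1349 FPKM in the control, and its adipocyte sums were 140 and 379 FPKM. Their part was not tested. Dusp4 had 45.1, 15.3 and 23.4 FPKM in co-culture at 24 h against 25.3, 11.5 and 12.6 FPKM. At 72 h it had 48.9, 17.1 and 18.8 FPKM against 18.98, 14.1 and 15.1 FPKM, with replicate 1 far above the others in co-culture. Spred2 was the steadiest, between 21.8 and 23.9 FPKM in co-culture at 24 h against 16.5 to 19.3 FPKM, and between 20.5 and 21.97 FPKM at 72 h against 15.5 to 18.5 FPKM. Etv5 was separate at both times too, with 25.001 to 31.5 FPKM against 17.5 to 22.8 FPKM and 25.8 to 39.1 FPKM against 21.8 to 22.8 FPKM. In each standard comparison 3 members did not overlap between the groups, all with higher values in co-culture, against 3.35% of all genes at 24 h and 3.36% at 72 h (7.73% and 13.1% in either direction). No member was lower without overlap, against 4.38% and 9.78% of all genes.

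Spry1 had lower values in co-culture in every pair of the standard model. It had 26.5, 18.5 and 17.9 FPKM in standard co-culture at 24 h and 45.6, 27.7 and 21.3 FPKM in the controls. At 72 h it had 31.6, 22.8 and 23.6 FPKM against 37.6, 26.7 and 34.2 FPKM. The log2 fold changes were -0.53 ± 0.31 and -0.33 ± 0.19, and neither passed, also with the replicate number in the model (adjusted p = 0.106 and 0.445). Without the libraries numbered 1, 0 members passed at either time, and the median over the members was 0.37 at 24 h and 0.17 at 72 h.

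**Figure D3:**
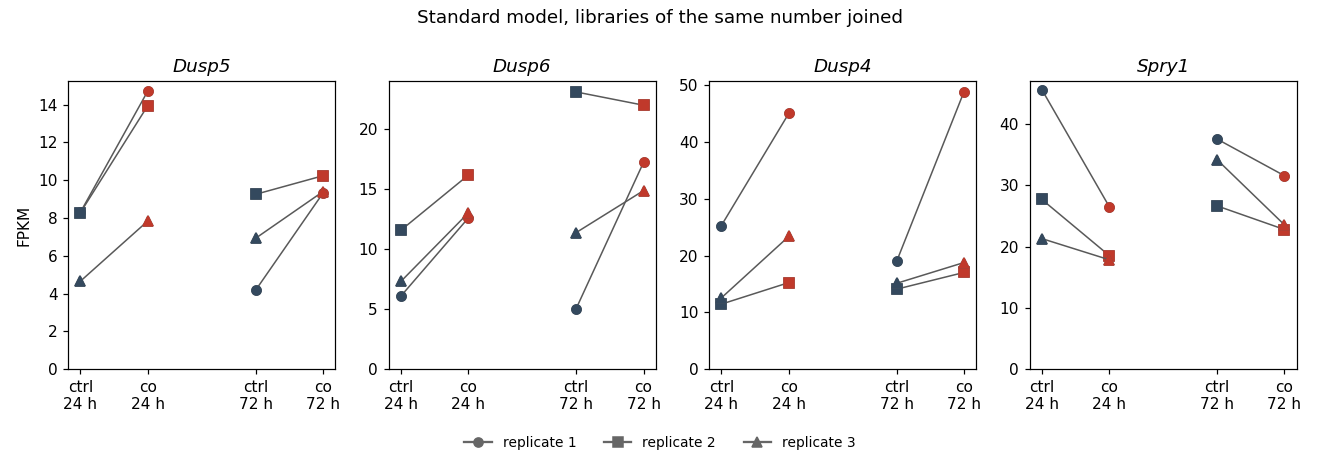
FPKM (y axis, linear, from 0) of Dusp5, Dusp6, Dusp4 and Spry1 in the standard model, with control (ctrl) and co-culture (co) libraries of the same replicate number joined. Dusp5 and Dusp4 are higher and Spry1 is lower in co-culture in every pair at both times, while the pair of Dusp6 numbered 2 at 72 h runs from 23.1 to 21.99 FPKM.

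Whether the response differed between the models was tested as the difference of the co-culture effects, inverse minus standard, over all 24 libraries. Distance, RNA input, time of coexistence and medium history cannot be told apart in this difference. No member and none of the 14452 genes tested passed at 24 h or at 72 h (0%) with limma, nor did any member with voom, and no member had an unadjusted p under 0.05. This fit leaves the replicate number out, although the numbers pair the standard libraries. At 72 h the differences were 0.49 (95% interval -0.57 to 1.55) for Dusp6, 0.87 (-0.57 to 2.32) for Etv4, 0.22 (-1.44 to 1.87) for Spry2, 0.29 (-0.19 to 0.77) for Etv5 and 0.16 (-0.19 to 0.51) for Spred2 on the log2 scale. For Dusp5 at 24 h it was 0.41 (-0.75 to 1.57). With 1 library left out, the difference at 72 h ranged from 0.34 to 1.33 for Etv4 and from 0.13 to 0.48 for Etv5. It ranged from 0.066 to 0.23 for Spred2, and from 0.13 to 0.67 for Dusp5 at 24 h. The differences of Dusp6 and Spry2 at 72 h turned sign. The intervals of Dusp6, Etv4 and Spry2 include differences of more than 1 on the log2 scale in favour of the inverse model, so neither a difference nor its absence was shown by this fit. With the replicate number of the standard libraries in the model, an alternative chosen after seeing the data, no member passed either, and 0 genes of all passed at 24 h and 17 at 72 h, each with a lower effect in the inverse model. The intervals then narrowed to between 0.25 and 1.49 for Etv4 (unadjusted p = 0.00869, adjusted p = 0.409), -0.30 and 1.28 for Dusp6 and -0.61 and 1.04 for Spry2 at 72 h, and moved little for Etv5 (-0.14 to 0.71) and Spred2 (-0.20 to 0.52). For Dusp5 at 24 h the interval was -0.71 to 1.53. Etv4 was the 1 member with an unadjusted p under 0.05 in that fit. With the number in both models Spry1 joined it, 2 members at 72 h, with a difference of 0.72 (0.0875 to 1.35, unadjusted p = 0.0282, adjusted p = 0.565). Between the times of one model no difference of effects passed for any member (0 of 10 in both models; the smallest unadjusted p was that of Etv4 in the inverse model, 0.0275, with a difference of 0.72 and an interval of 0.09 to 1.35). Between the controls of the models no member passed (0 of 10 at both times, 0% of all genes by limma). There, 1 member had an unadjusted p under 0.05 at each time. So had 225 of the 12903 genes tested at 24 h and 810 of the 13106 at 72 h.

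The rest of the pathway was followed in 83 further genes in 5 lists. These lists were chosen with earlier results of these data known, so the shares called in them are descriptions. Of 14 other ERK target genes tested, 6 rose and 1 fell in inverse co-culture at 72 h (50%, beside 12.8% of all genes tested, 3.27% higher and 9.57% lower), with a median log2 fold change of 0.80. Errfi1, an inhibitor of the EGF receptor and thus also a feedback gene, rose from 72.3 ± 27 to 229 ± 39 FPKM (SD, n = 3; log2 fold change 1.72 ± 0.28 SE, adjusted p = 0.0107). Fosl1, a member of the AP-1 family that is a common marker of ERK activity, rose from 4.74 ± 0.42 to 14.3 ± 2.8 FPKM (1.48 ± 0.18, adjusted p = 0.00512). Myc, the growth regulator, rose from 14.8 ± 1.4 to 35.8 ± 11 FPKM (1.21 ± 0.20, adjusted p = 0.0112), Phlda1 by 0.96 ± 0.14 (adjusted p = 0.00774) and Plaur, the urokinase receptor, by 0.84 ± 0.14 (adjusted p = 0.0104). Epha4, an ephrin receptor named because it was the 1 that fell, had lower values (-0.78 ± 0.20, adjusted p = 0.0432). None of 13 tested passed at 24 h. Of the relatives of the members, 7 of 10 were tested at 72 h and Spred3 rose (0.63 ± 0.12, adjusted p = 0.0186), with a median of 0.09 over the 7. Without co-culture replicate 1, 4 of the other targets and 0 of the relatives passed, and Errfi1 had an adjusted p of 0.0503. Without control replicate 3, 3 of the other targets and 0 of the relatives passed, with adjusted p = 0.0577 for Myc and 0.0536 for Plaur, and Spred3 did not pass without control replicate 1 either (0.0755).

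The components of the cascade itself were counted in the same way, without a test of the list as a whole. Of 25 tested in inverse co-culture at 72 h, 1 rose and 3 fell (16% called, beside 12.8% of all genes tested, 3.27% higher and 9.57% lower), and the median log2 fold change was -0.17, near the -0.16 of all genes tested. Map2k1, which encodes the kinase MEK1, rose from 105 ± 0.72 to 163 ± 9.8 FPKM (0.63 ± 0.09, adjusted p = 0.00774). Araf, a kinase of the cascade (-0.42 ± 0.10, adjusted p = 0.0336), and Rps6ka3, an ERK-activated kinase (-0.62 ± 0.09, adjusted p = 0.00771), were among those that fell. The call of Araf was lost whichever of the 6 libraries was left out (adjusted p = 0.0516 to 0.127), while Map2k1 and Rps6ka3 passed each time.

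Among 16 growth factor ligands tested at 72 h, 2 rose and 1 fell (18.8% called, beside 12.8% of all genes tested). Ereg, which encodes the EGF receptor ligand epiregulin, rose from 1.202 ± 0.13 to 7.93 ± 2.1 FPKM (2.28 ± 0.23, adjusted p = 0.00385), and Fgf2 from 262 ± 25 to 491 ± 31 FPKM (0.91 ± 0.11, adjusted p = 0.00575). Pdgfa fell (-0.68 ± 0.16, adjusted p = 0.0333). With 1 library left out 2 to 5 ligands passed, the 5 without co-culture replicate 2. Ereg and Fgf2 passed each time, and Pdgfa passed without co-culture replicate 3 alone (adjusted p = 0.0396 to 0.126). Both risers had risen at 24 h too, Ereg by 1.54 ± 0.27 (adjusted p = 0.0260) and Fgf2 by 0.83 ± 0.13 (adjusted p = 0.0187), together with Igf1 (0.86 ± 0.13, adjusted p = 0.0168), 3 of 14 tested (21.4%, beside 2.47% of all genes). These calls at 24 h rested on single libraries, with 0 ligands without control replicate 2 or control replicate 3, 1 without control replicate 1 and 2 without co-culture replicate 2. The adjusted p reached 0.113 for Ereg, 0.0991 for Fgf2 and 0.0806 for Igf1.

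Of 11 growth factor receptors tested at 72 h, 1 rose and 2 fell (27.3%, beside 12.8% of all genes tested). Pdgfra rose (0.38 ± 0.10, adjusted p = 0.0416, and 0.53 ± 0.09, adjusted p = 0.0222, at 24 h), but at 72 h its call was lost whichever library was left out (adjusted p = 0.0578 to 0.127), and at 24 h without control replicate 1, 2 or 3 or co-culture replicate 2 (up to 0.114). Fgfr2 fell from 13.1 ± 0.36 to 4.78 ± 0.29 FPKM (-1.37 ± 0.13, adjusted p = 0.00337) and Met, the receptor of hepatocyte growth factor, from 4.58 ± 1.2 to 0.882 ± 0.31 FPKM (-1.87 ± 0.29, adjusted p = 0.00893). Without control replicate 3, 1 receptor passed, Fgfr2, and Met had an adjusted p of 0.0562. In the standard model no gene of these lists passed at either time without the replicate number in the model, although some fold changes were of similar size. Ereg was between 8.19 and 10.03 FPKM in standard co-culture at 72 h and between 2.09 and 2.62 FPKM in the controls (1.76 ± 0.18, adjusted p = 0.362). Fgf2 was between 353 and 424 FPKM at 24 h against 169 to 253 FPKM (0.86 ± 0.19, adjusted p = 1). With the replicate number in the model, 5 genes of these lists passed at 24 h, all with higher values in co-culture, against 1.22% of all genes (0.661% higher). They were Errfi1 (1.06 ± 0.14, adjusted p = 0.0297) and Fosl1 (0.90 ± 0.14, adjusted p = 0.0379) of 13 other ERK targets, and Hgf (1.17 ± 0.11, adjusted p = 0.0147), Ereg (1.28 ± 0.19, adjusted p = 0.0362) and Fgf10 (0.72 ± 0.12, adjusted p = 0.0490) of 15 ligands. Fgf2 had an adjusted p of 0.0546 in that fit, and at 72 h 0 genes of these lists passed in it.

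**Figure D4:**
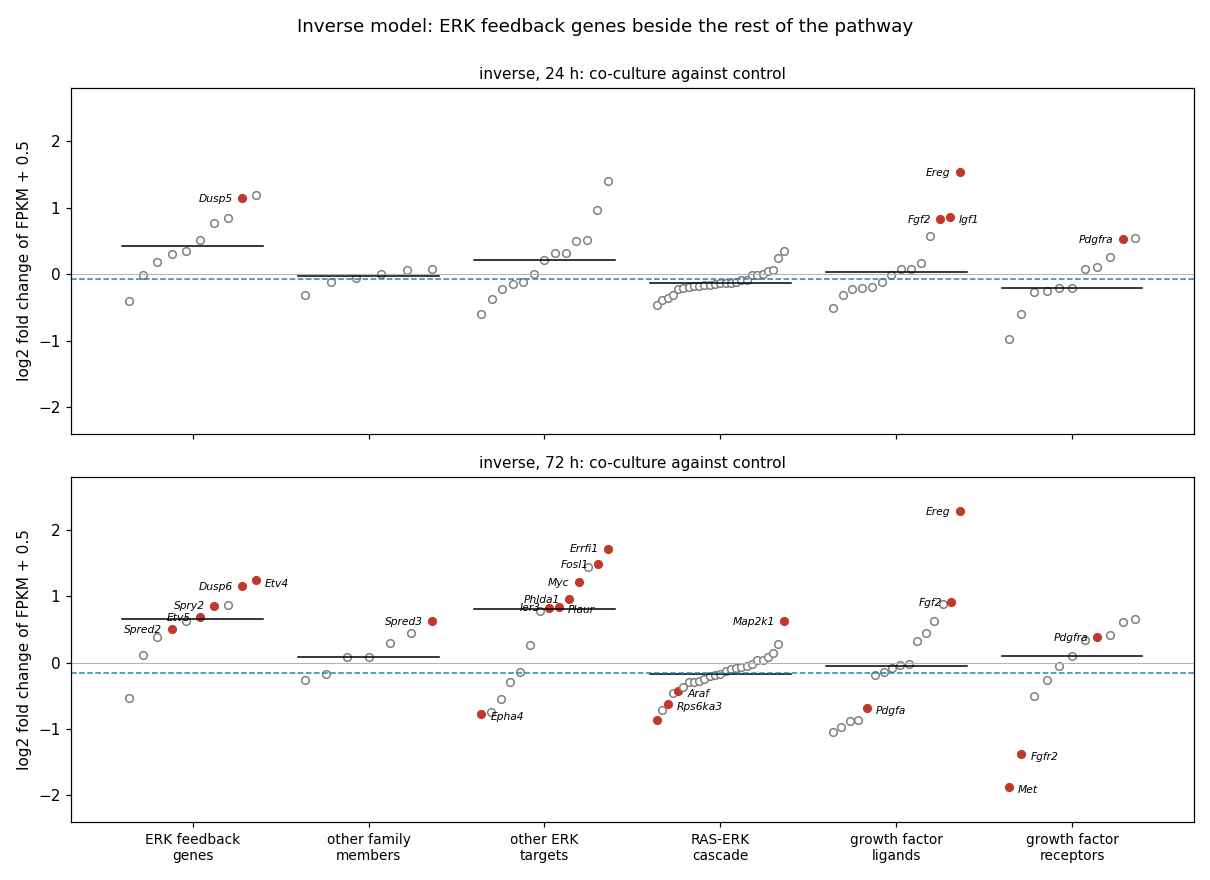
Log2 fold change of FPKM + 0.5 (y axis) of each tested gene in inverse co-culture against control at 24 h (top) and 72 h (bottom), by list (x axis) and sorted within it. Filled red points passed an adjusted p of 0.05, most of them named, black lines are list medians and the dashed line the median of all genes tested. At 72 h the medians of the ERK feedback genes and of the other ERK targets are 0.66 and 0.80, and that of the cascade is -0.17.

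The genes most alike in pattern were sought among 14420 other genes by the root mean square difference of z-scored log2(FPKM + 0.5) over the 24 libraries, in which 0 is an identical pattern. The libraries share groups, replicate numbers and models, so likeness is a description. Spry2 had the closest neighbour, Eps8 (0.334), followed by Dusp6 with Ch25h (0.391) and Spred1 with Tgfbr2 (0.418). Spred2 and Etv5 shared their nearest gene, Tnfsf15 (0.440 and 0.473), and were also each other's nearest member (0.511), with 6 and 4 other genes nearer. Dusp6 and Spry2 were nearest to each other as members (0.573). Etv4 was nearest to Mical2 (0.477), Spry1 to Fjx1 (0.480), Spry4 to Hlcs (0.521), Dusp4 to Clip2 (0.527) and Dusp5 to Mboat7 (0.689). Spry1 stood farthest from the other members (1.14 to Dusp4, with 1194 other genes nearer). To the mean z-score of the 10 members, Rem1 (0.432), Adcy7 (0.469), Fn1, which encodes fibronectin (0.510), and Sestd1 (0.518) were among the nearest. These neighbours depended in part on the scale and on the genes compared. With a pseudocount of 1 the nearest gene of Spred2 was Raph1 (0.442). On recovered fragments, scaled by library total, 13247 genes could be compared, without Ch25h and Mical2, and the nearest genes were Ptgs1 for Etv5 (0.490), Chic2 for Dusp6 (0.421) and Tmem59l for Etv4 (0.479). With FPKM of the same 13247 genes, chosen after seeing the data, Chic2 (0.417) and Tmem59l (0.480) were again nearest and Etv5 kept Tnfsf15. The other 6 members kept their nearest gene in each of these settings, as did Rem1, Adcy7 and Fn1 their ranks beside the mean.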

How the data were processed

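Poly(A) RNA of PSC was sequenced in 24 libraries. The authors aligned reads to GRCm38 with HISAT2 2.0.5, counted fragments per gene with featureCounts 1.5.0-p3 at default settings and deposited FPKM for 53801 genes. The annotation release is not given in the sources used here, and 53706 gene identifiers matched the annotation used here for coordinates. DESeq2 1.20.0 was the authors' tool for their own comparisons, none of which was used. Cells had been detached with trypsin for 10 min before RNA extraction.

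FPKM were tested as log2(FPKM + 0.5) with limma 3.58.1 in R 4.3.3 (moderated, with an intensity trend, two-sided) over genes above 1 FPKM in at least 3 libraries of a comparison. P-values were adjusted by the Benjamini-Hochberg method over all genes tested, with 0.05 as the limit. The added 0.5 makes fold changes of low genes too small. With 3 against 3 libraries an exact permutation test cannot give a p below 0.1, so none was used. Whole fragments were recovered from FPKM steps, within 0.02 of a whole number, for 94.3% of the genes above 0, and 95.02% to 96.03% of low values per library came out whole. These served for depth and for limma-voom as an alternative. Spry4 needed a searched length of 4587 bases in place of the annotated 4755.

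All 10 members are named. Of each other list, at most the 5 called genes with the largest absolute log2 fold change per co-culture comparison are named, and Epha4 was added after its values were seen. Some genes under this rule are not reported here. Members and lists were chosen with earlier results of these data known. Libraries of the standard model with one replicate number deviated together (r = 0.55 to 0.82 at 24 h and 0.48 to 0.60 at 72 h over genes), so their numbers pair them as judged from the data. In the inverse model r was between -0.17 and 0.10. Checks of the tests on simulated data are not reported here.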

Additional observations from a re-analysis of the deposited data

How the results depend on the processing

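No call of a member held under every alternative. In inverse co-culture at 24 h the count of 1 member became 0 without the filter and with all 24 libraries in the model, 3 with voom on recovered fragments, and 0 to 2 when 1 library was left out. At 72 h the count of 5 became 3 without the filter and 2 with all 24 libraries, and was 0 to 6 with 1 library left out. For the inverse controls over time, 4 became 2 without the filter, 0 with all 24 libraries and 2 to 5 with 1 library left out.

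In a fit with a replicate block the count became 1 at 24 h in the standard model, where the numbers pair the samples. In the inverse model they share a number without such pairing, and the block gave 0 members at 24 h and left 5 at 72 h, with Dusp5 in place of Spred2. Calls over all genes fell from 317 to 88 and from 1678 to 902.

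Of all genes, 317 were called in inverse co-culture at 24 h, 50 without the filter, 98 without the trend, 11 with all 24 libraries and 480 with voom. At 72 h these were 1678 in the reported fit, 888 without the filter and 897 with all 24 libraries. For the inverse controls over time they were 2516, 1425 and 225. With all 24 libraries in the model 5 genes were called at 24 h and 36 at 72 h in the standard model.

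Signs turned for values that were not called. With scaling by gene ratios Spry4 went to 0.0752 in the standard model at 72 h and to 0.0436 in the inverse model at 24 h, and Spry1 to -0.00916 over time in the inverse controls. Without the libraries numbered 1, Spred1 went to -0.0104 in the standard model at 72 h. With 1 library left out, the log2 fold changes ranged in the standard model at 24 h from -0.15 to 0.91 for Spry2 and from -0.00674 to 0.42 for Spry4, and at 72 h from -0.16 to 1.06 for Spry2, -0.33 to 0.16 for Spry4 and -0.0884 to 0.89 for Etv4. In the inverse model at 24 h Spry4 ranged from -0.21 to 0.19. Over time in the inverse controls the ranges were -0.10 to 0.26 for Dusp6, -0.0875 to 0.20 for Spry1, -0.00681 to 0.11 for Spred2 and -0.10 to 0.00705 for Etv5. For the difference between the models at 72 h they were -0.0222 to 1.02 for Dusp6 and -0.199 to 1.02 for Spry2. The cause was not tested.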
